A study of Mus musculus with 24 samples.

Results

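The comparison set cuprizone-fed mice against naive mice when both received a BTK inhibitor, across every gene of bulk RNA sequencing of mouse corpus callosum. It was defined by the labels alone, as the libraries labelled Cuprizone BTKi 1 to 8 against those labelled Naive BTKi 1 to 4, which are 12 of the 24 libraries of the study. The cuprizone BTKi group (n = 8) combined cuprizone with the inhibitor, and the naive BTKi group (n = 4) received the inhibitor without cuprizone. The other 12 libraries, cuprizone vehicle (n = 8) and naive vehicle (n = 4), had vehicle in place of the inhibitor and enter here to estimate the spread and to ask whether a change under BTKi differed from the change under vehicle. The sources used here do not give the strain, sex or age of the mice, the identity and dose of the inhibitor, or how long feeding and dosing lasted. The lesion is toxic, so it models myelin loss and not autoimmune attack. The labels also do not say that each library came from a separate animal, so the p-values reflect the scatter of these samples, part of which may be technical.

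The corpus callosum is the white matter tract between the cerebral hemispheres, and its myelin is made by oligodendrocytes. Cuprizone is a copper chelator that, given in food, kills mature oligodendrocytes and strips the tract of myelin, after which microglia clear the debris, astrocytes become reactive and precursor cells rebuild the lineage. Bruton's tyrosine kinase (BTK) belongs to the Tec kinases and acts in B cells and in myeloid cells such as microglia, where it relays signals from the B cell receptor, from Fc receptors that bind antibody, and from some innate immune receptors. In bulk tissue, fewer cells of a type and less RNA per cell cannot be told apart, and this holds for every gene below.

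The values are FPKM, fragments scaled to gene length and to library size, and 15216 of 54446 genes reached a mean of 0.5 FPKM over the 24 libraries and were tested. A gene almost silent in naive tissue passes that filter only through the cuprizone libraries, so counts over tested genes lean towards those that were higher. Changes are given as log2 of FPKM + 0.5, cuprizone BTKi minus naive BTKi, and a gene is called where the limma adjusted p is at most 0.05. On a nominal fragment scale read from the low values, of which only the ratios between libraries carry information, cuprizone BTKi 5 stood at 2.64e+07 and the other 11 libraries at 2.99e+07 to 3.08e+07. At least 0.5 FPKM was reached by 15193 ± 73.4 genes in cuprizone BTKi and 14994 ± 62.4 genes in naive BTKi (SD, n = 8 and 4; two-sided exact permutation p = 0.00808, adjusted p = 0.0323 over 4 library measures), and the shares of mitochondrial, haemoglobin and top 10 genes gave adjusted p from 0.202 to 0.699. On the first principal component, with 36.9% of the variance, the cuprizone BTKi libraries spread from 2.81 to 23.1 and the naive BTKi libraries from -20.5 to -18.6, so the groups did not overlap. Cuprizone BTKi 8 stood farthest out among the cuprizone libraries, and naive BTKi 1 had the highest total FPKM and mitochondrial share.

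The labelled tissue was checked against its markers. The myelin gene Mbp was at 968 ± 267 FPKM in cuprizone BTKi and 1655 ± 37.0 FPKM in naive BTKi (SD, n = 8 and 4, as in every such pair below), so this myelin RNA was abundant. Mbp alone does not set the tract apart from other myelinated tissue. Genes of grey matter neurons were also abundant: Slc17a7, the vesicular glutamate transporter of cortical neurons, was at 367 ± 24.0 FPKM in cuprizone BTKi and 393 ± 8.54 FPKM in naive BTKi, and Snap25, a synaptic vesicle fusion protein, at 957 ± 50.8 FPKM in cuprizone BTKi and 979 ± 48.7 FPKM in naive BTKi. Ttr, the transthyretin of the choroid plexus, ranged from 381 to 1216 FPKM in cuprizone BTKi and from 452 to 2444 FPKM in naive BTKi. Libraries of both groups differed several-fold in this gene.

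Under the inhibitor, cuprizone-fed tissue had less RNA of the myelin program and of cholesterol synthesis, and more RNA of microglial, interferon and astrocyte reaction genes. In all, 1198 genes (7.87% of those tested) were called, 929 higher (6.11%) and 269 lower (1.77%), and the median change over all genes tested was 0.02. A change of 2-fold or more was reached by 142 of the higher genes (0.933%) and 22 of the lower ones (0.145%). The 8 cuprizone BTKi and 4 naive BTKi libraries did not overlap at all in 1091 genes (7.17%), 868 of them higher (5.7%) and 223 lower (1.47%), and 904 genes met both conditions. The split of the calls depended on the scaling, since median ratio scaling gave 772 called higher against 406 lower, and quantile normalization 724 against 395. Without the 2 libraries that stood apart most, cuprizone BTKi 8 and naive BTKi 1, 813 genes were called, 593 of them higher.

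**Figure D1:**
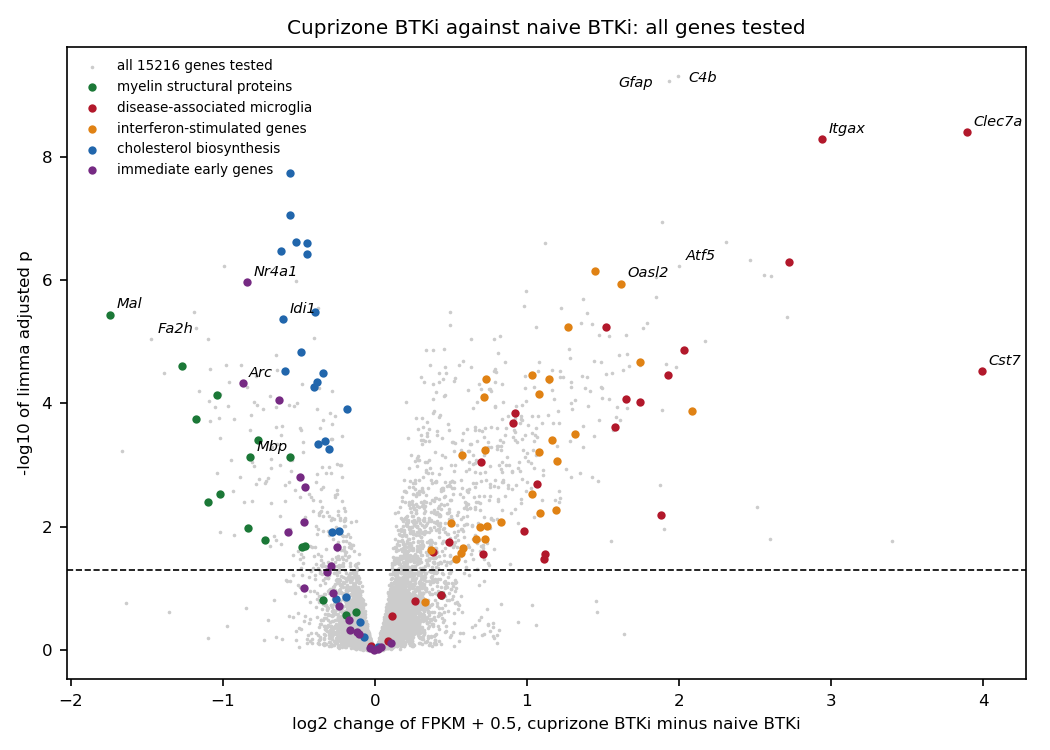
Each of the 15216 genes tested is plotted by its log2 change, cuprizone BTKi minus naive BTKi (horizontal), and -log10 of the limma adjusted p (vertical), with a dashed line at 0.05 and the members of 5 gene lists in colour. Disease-associated microglia and interferon-stimulated genes lie mostly to the right, reaching 3.99 for Cst7, and myelin, cholesterol biosynthesis and immediate early genes mostly to the left, reaching -1.74 for Mal.

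Myelin genes were lower in cuprizone BTKi, and the size of the fall differed between libraries. Mbp, a cytoplasmic protein that holds the layers of the myelin sheath together, was at 709, 908 and 1486 FPKM (lowest, median and highest library) in cuprizone BTKi, against 1707, 1653, 1636 and 1623 FPKM in naive BTKi 1 to 4. Mbp changed by -0.82 (SE 0.15, limma adjusted p = 0.000747). Even the highest cuprizone BTKi library lay below every naive BTKi library, and the cuprizone BTKi libraries spread over a far wider range. Mal, a proteolipid of compact myelin, was at 20.8, 31.9 and 58.4 FPKM (lowest, median and highest library) in cuprizone BTKi, against 109.6, 112, 122 and 114 FPKM in naive BTKi 1 to 4. Mal changed by -1.74 (SE 0.20, limma adjusted p = 3.65e-06), and the groups did not overlap. The gene Mal lies on chromosome 2, from 127633226 to 127656695, on the minus strand (GRCm38, as are all gene positions below). Fa2h, the hydroxylase that makes the 2-hydroxy fatty acids of galactolipids, was at 5.54, 8.24 and 12.4 FPKM (lowest, median and highest library) in cuprizone BTKi, against 22.8, 23.7, 24.2 and 22.3 FPKM in naive BTKi 1 to 4. Fa2h changed by -1.47 (SE 0.19, limma adjusted p = 9.18e-06). The gene Fa2h lies on chromosome 8, from 111345135 to 111393824, on the minus strand. All 8 cuprizone BTKi libraries lay below the 4 naive ones for this gene too.

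Of 17 tested genes for structural myelin proteins, 13 were called lower and none higher, with a median change of -0.77 against 0.02 for all genes. Mog, a protein of the outermost myelin surface, was at 17.6 ± 7.44 FPKM in cuprizone BTKi and 35.5 ± 0.804 FPKM in naive BTKi (log2 change -1.09, SE 0.24, adjusted p = 0.00393). Opalin, a transmembrane protein of mature oligodendrocytes, was at 6.41 ± 2.11 FPKM in cuprizone BTKi and 15.6 ± 0.712 FPKM in naive BTKi (log2 change -1.27, SE 0.17, adjusted p = 2.43e-05). The tested members not called were Cd9, Pllp, Pmp22 and Omg, with changes of 0.43, -0.34, -0.19 and -0.13. Cd9 is also on the microglial list.

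Other genes of mature oligodendrocytes were called lower in 21 of 26 members and higher in none (median -0.67). Ppp1r14a, an inhibitor of myosin phosphatase, was at 4.80 ± 2.78 FPKM in cuprizone BTKi and 14.4 ± 1.44 FPKM in naive BTKi (log2 change -1.66, SE 0.30, adjusted p = 0.000583). Anln, an actin-binding scaffold, was at 4.05 ± 0.932 FPKM in cuprizone BTKi and 9.73 ± 0.846 FPKM in naive BTKi (log2 change -1.19, SE 0.14, adjusted p = 3.32e-06). Aspa, the enzyme that splits N-acetylaspartate, was at 4.88 ± 1.42 FPKM in cuprizone BTKi and 11.2 ± 0.648 FPKM in naive BTKi (log2 change -1.15, SE 0.17, adjusted p = 6.35e-05). S1pr5, the sphingosine phosphate receptor of oligodendrocytes, Ninj2, a cell adhesion protein, Prr18 and the ADAMTS-like matrix protein Adamtsl4 were also among the 15 largest falls, with changes of -1.05, -1.08, -1.10 and -1.08. Of 20 genes of myelin lipid synthesis, 8 were lower and 2 higher, and the calls fell to 6 without naive BTKi 2. Besides Fa2h, Ugt8a, which makes galactosylceramide, changed by -1.09 (adjusted p = 9.09e-05). The 2 that were higher, the fatty acid enzymes Fads2 (0.17) and Elovl5 (0.16), were weakly supported: the call of Fads2 ended without cuprizone BTKi 4, 7 or 8 or naive BTKi 2, 3 or 4, with adjusted p up to 0.175 and that of Elovl5 without cuprizone BTKi 1, 2, 4 or 7 or naive BTKi 2, 3 or 4, with adjusted p up to 0.145.

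At the node of Ranvier and its flanks, where axon and myelin meet, 5 of 15 genes were lower (33.3%, against 1.77% of all genes tested). The median change of the list was -0.04, against 0.02 for all genes. Cldn11, among the 5, is also on the list of structural myelin proteins. Cldn11, the claudin of the tight junctions inside myelin, was at 52.1 ± 15.1 FPKM in cuprizone BTKi and 104 ± 2.54 FPKM in naive BTKi (log2 change -1.04, SE 0.16, adjusted p = 7.25e-05). Hapln2, a link protein of the nodal matrix, was at 6.59 ± 1.93 FPKM in cuprizone BTKi and 12.8 ± 0.230 FPKM in naive BTKi (log2 change -0.95, SE 0.18, adjusted p = 0.000828). Cntn2, an adhesion molecule beside the paranode, was at 20.2 ± 2.03 FPKM in cuprizone BTKi and 28.2 ± 1.54 FPKM in naive BTKi (log2 change -0.48, SE 0.07, adjusted p = 4.84e-05). Nfasc, which encodes neurofascins of both the axon and the glial loop, had a log2 change of 0.04 (adjusted p = 0.795). The other 2 called were the axonal channels Scn1a and Kcna1, chosen here after their values were seen. The count was 3 without naive BTKi 2, without naive BTKi 4 and without the choroid plexus extremes defined below.

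Genes of earlier lineage stages were called in smaller shares than those of mature oligodendrocytes. Among lineage transcription factors 8.33% were lower, against 1.77% of all genes tested. Sox10, the transcription factor that every oligodendrocyte stage needs, was at 17.6 ± 2.96 FPKM in cuprizone BTKi and 20.4 ± 1.07 FPKM in naive BTKi (log2 change -0.22, SE 0.11, adjusted p = 0.28), and of 12 transcription factors of the lineage only Sox8 was called, at -0.29, a call that ended without cuprizone BTKi 5, 6 or 8 or naive BTKi 1, 2, 3 or 4, with adjusted p up to 0.156. Pdgfra, the growth factor receptor of precursor cells, was at 6.69 ± 0.317 FPKM in cuprizone BTKi and 6.11 ± 0.329 FPKM in naive BTKi (log2 change 0.12, SE 0.05, adjusted p = 0.113). Of 15 precursor genes 3 were called higher (20%, against 6.11% of all genes tested) and none lower. They were Gpr17, a receptor of committed precursors (0.32, lost without naive BTKi 2 or 4, with adjusted p up to 0.086), Vcan, a matrix proteoglycan (0.31, lost without naive BTKi 1 or 3, with adjusted p up to 0.0563), and Ptprz1, a receptor phosphatase (0.19, adjusted p = 0.00262). The list of newly formed oligodendrocytes had 3 of 13 genes higher (23.1%, against the same 6.11%). The long noncoding RNA 9630013A20Rik was at 3.99 ± 1.30 FPKM in cuprizone BTKi and 1.42 ± 0.129 FPKM in naive BTKi (log2 change 1.18, SE 0.18, adjusted p = 8.52e-05). Bcas1, a marker of early myelinating cells, was at 151 ± 26.2 FPKM in cuprizone BTKi and 105 ± 2.59 FPKM in naive BTKi (log2 change 0.51, SE 0.12, adjusted p = 0.00741). The calcium channel Itpr2 changed by 0.36 (adjusted p = 0.0078). Enpp6, another marker of that stage, had a log2 change of -0.31 (adjusted p = 0.212).

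**Figure D2:**
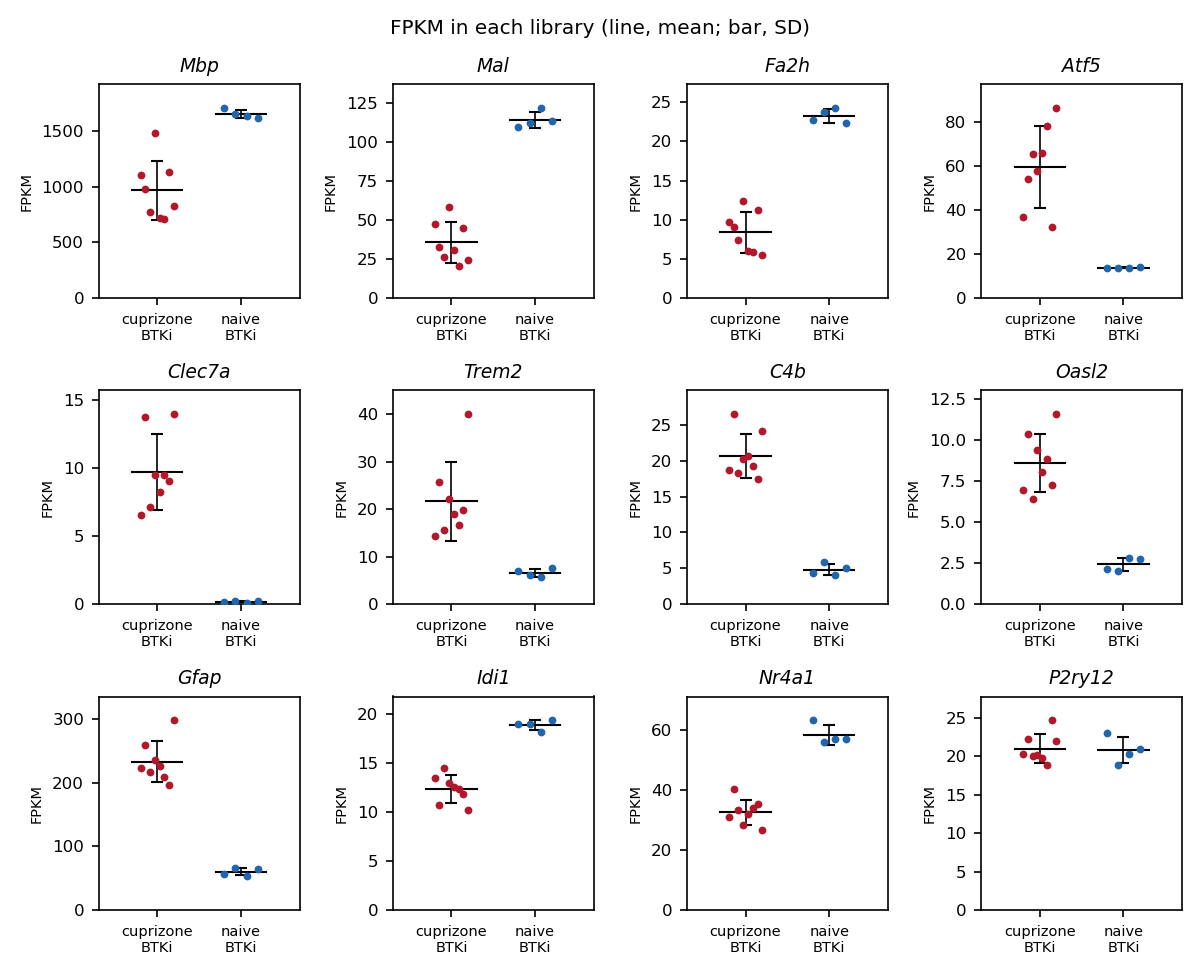
FPKM of 12 genes in each of the 8 cuprizone BTKi libraries (red, left) and the 4 naive BTKi libraries (blue, right); points are libraries, the line is the mean and the bar is the SD. The groups do not overlap in any of the genes shown except P2ry12, where cuprizone BTKi averages 21.0 FPKM and naive BTKi 20.8 FPKM.

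The integrated stress response, in which phosphorylation of the initiation factor eIF2 alpha slows protein synthesis and favours translation of the transcription factor ATF4, was represented by 19 tested genes. Of these 13 were called higher and none lower, with a median of 0.42. Atf5, a transcription factor of the same family, was at 32.1, 61.9 and 86.4 FPKM (lowest, median and highest library) in cuprizone BTKi, against 13.8, 13.8, 13.5 and 14.2 FPKM in naive BTKi 1 to 4. Atf5 changed by 2.00 (SE 0.20, limma adjusted p = 5.9e-07). The gene Atf5 lies on chromosome 7, from 44812256 to 44816658, on the minus strand. The naive BTKi libraries were nearly identical and every cuprizone BTKi library lay well above them. Nupr1, a stress-induced chromatin protein, was at 28.3 ± 10.8 FPKM in cuprizone BTKi and 7.46 ± 0.326 FPKM in naive BTKi (log2 change 1.76, SE 0.22, adjusted p = 5.98e-06). Gdf15, a secreted stress cytokine, was at 1.47 ± 0.722 FPKM in cuprizone BTKi and 0.0777 ± 0.0530 FPKM in naive BTKi (log2 change 1.66, SE 0.26, adjusted p = 0.000117). Slc7a11, the cystine importer, was at 7.34 ± 1.17 FPKM in cuprizone BTKi and 3.73 ± 0.189 FPKM in naive BTKi (log2 change 0.88, SE 0.14, adjusted p = 0.00016). Atf4 RNA itself was at 75.9 ± 3.92 FPKM in cuprizone BTKi and 72.2 ± 1.85 FPKM in naive BTKi (log2 change 0.07, SE 0.05, adjusted p = 0.446), and it is known to be controlled mainly at translation.

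Genes of amino acid and one-carbon synthesis and amino acid transport, many known ATF4 targets, were higher in 5 of 17 and lower in 1. Mthfd2, a mitochondrial folate enzyme, was at 5.19 ± 0.739 FPKM in cuprizone BTKi and 2.88 ± 0.223 FPKM in naive BTKi (log2 change 0.74, SE 0.11, adjusted p = 3.98e-05). Aldh1l2, another, was at 1.39 ± 0.193 FPKM in cuprizone BTKi and 0.660 ± 0.0897 FPKM in naive BTKi (log2 change 0.70, SE 0.10, adjusted p = 5.81e-05). Pycr1, the last enzyme of proline synthesis, changed by 0.58, a call that ended without naive BTKi 1, with adjusted p up to 0.0515, and the glycine transporter Slc6a9 by -0.41, lost without naive BTKi 1 or 4, with adjusted p up to 0.0893. Phgdh, the entry enzyme of serine synthesis, had a log2 change of 0.24 (adjusted p = 0.0551). Of 19 aminoacyl-tRNA synthetases 2 were higher (10.5%, near the 6.11% of all genes tested), with a list median of 0.04. They were Eprs (0.31, adjusted p = 0.00158) and Mars (0.21, lost without naive BTKi 1, 2 or 4, with adjusted p up to 0.0946), while Wars had a log2 change of -0.04 (adjusted p = 0.561). None of 16 genes of the unfolded protein response was called by limma, and 1 had an unadjusted p under 0.05. Hspa5, the chaperone BiP of the endoplasmic reticulum, was at 86.0 ± 4.91 FPKM in cuprizone BTKi and 92.4 ± 13.3 FPKM in naive BTKi (log2 change -0.09, SE 0.08, adjusted p = 0.584).

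The promoters of these genes were searched for the ATF4 composite element, TGATGNAA on either strand. Only the part before the gene start was searched, in RefSeq promoter sequences of 300 bases around each start. The element was present in 3.45% of 32851 promoters of the table. It was in 28.6% of 21 promoters of integrated stress response genes and in 11.8% of 17 promoters of the amino acid and one-carbon list. At least 1 promoter held it in 6 of 18 matched genes of the first list and in 2 of 14 of the second. The windows of 110 bases show the element in 2 integrated stress response members that rose and in 2 that were not called, which is a description of letters and not of binding. They lie, in GRCm38.p6, with Nupr1 at chr7:126625522-126625631 on the minus strand, Atf3 at chr1:191183385-191183494 on the minus strand, Chac1 at chr2:119350998-119351107 on the plus strand and Vldlr at chr19:27216770-27216879 on the plus strand. Each is printed 5′ to 3′ on the strand of the gene, with the element in capitals.
Nupr1: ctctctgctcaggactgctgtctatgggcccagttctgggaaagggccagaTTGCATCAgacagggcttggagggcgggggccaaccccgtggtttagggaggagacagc
Atf3: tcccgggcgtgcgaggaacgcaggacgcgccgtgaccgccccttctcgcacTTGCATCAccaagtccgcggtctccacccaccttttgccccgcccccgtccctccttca
Chac1: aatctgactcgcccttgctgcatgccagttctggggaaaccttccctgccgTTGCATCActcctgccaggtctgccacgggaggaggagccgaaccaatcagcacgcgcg
Vldlr: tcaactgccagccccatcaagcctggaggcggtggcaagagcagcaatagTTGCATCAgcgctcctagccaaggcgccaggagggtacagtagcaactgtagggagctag
The same 8 letters stand in all of these windows. Nupr1 and Atf3, a stress-induced transcription factor, were higher (1.76 and 0.82). Chac1, a glutathione-degrading enzyme, and Vldlr, a lipoprotein receptor, had log2 changes of 0.08 (adjusted p = 0.822) and -0.02 (adjusted p = 0.92).

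Microglial genes held the largest rises. Clec7a, a lectin receptor that recognises beta-glucan, was at 6.54, 9.28 and 14.0 FPKM (lowest, median and highest library) in cuprizone BTKi, against 0.176, 0.201, 0.102 and 0.187 FPKM in naive BTKi 1 to 4. Clec7a changed by 3.90 (SE 0.29, limma adjusted p = 3.97e-09). The gene Clec7a lies on chromosome 6, from 129461591 to 129472779, on the minus strand. It was close to 0 in all 4 naive BTKi libraries and above the highest of them in every cuprizone BTKi library. Itgax, the integrin chain CD11c, was at 2.85, 3.65 and 6.29 FPKM (lowest, median and highest library) in cuprizone BTKi, against 0.124, 0.0713, 0.0818 and 0.0326 FPKM in naive BTKi 1 to 4. Itgax changed by 2.94 (SE 0.22, limma adjusted p = 5.21e-09). The gene Itgax lies on chromosome 7, from 128129547 to 128150657, on the plus strand. Cst7, an inhibitor of lysosomal cathepsins, was at 3.21, 10.1 and 32.0 FPKM (lowest, median and highest library) in cuprizone BTKi, against 0.0338, 0.1002, 0.134 and 0.201 FPKM in naive BTKi 1 to 4. Cst7 changed by 3.99 (SE 0.56, limma adjusted p = 2.97e-05). The cuprizone BTKi libraries differed widely for Cst7, yet the lowest of them stayed above the highest naive one.

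Disease-associated microglia are a state described around plaques and damaged myelin. Of its 26 tested genes 21 were higher and none lower, with a median of 1.09. Trem2, the lipid-sensing receptor on which that state depends, was at 14.4, 19.4 and 40.0 FPKM (lowest, median and highest library) in cuprizone BTKi, against 7.02, 6.06, 5.73 and 7.58 FPKM in naive BTKi 1 to 4. Trem2 changed by 1.58 (SE 0.27, limma adjusted p = 0.000241). Every cuprizone BTKi library was above the naive range, the highest of them far above the median. Tyrobp, the adaptor of TREM2, was at 49.0 ± 19.8 FPKM in cuprizone BTKi and 13.6 ± 1.97 FPKM in naive BTKi (log2 change 1.75, SE 0.27, adjusted p = 9.36e-05). Lgals3, galectin-3, was at 4.90 ± 1.46 FPKM in cuprizone BTKi and 0.810 ± 0.284 FPKM in naive BTKi (log2 change 2.03, SE 0.26, adjusted p = 1.34e-05). Ccl6, a myeloid chemokine, was at 7.55 ± 2.34 FPKM in cuprizone BTKi and 0.686 ± 0.127 FPKM in naive BTKi (log2 change 2.72, SE 0.28, adjusted p = 5.19e-07). Cd68, a membrane protein of lysosomes, was at 27.0 ± 7.96 FPKM in cuprizone BTKi and 7.98 ± 0.663 FPKM in naive BTKi (log2 change 1.65, SE 0.25, adjusted p = 8.58e-05). The members not called were Cd9, Ctsb, Fabp5, Ank and Timp2.

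Homeostatic microglial genes divided. Of 16, 9 were higher and none lower (median 0.41). Aif1, the calcium-binding protein IBA1, was at 8.17 ± 2.07 FPKM in cuprizone BTKi and 3.86 ± 0.565 FPKM in naive BTKi (log2 change 0.97, SE 0.20, adjusted p = 0.0017). Fcrls, an Fc receptor-like protein of microglia, was at 19.0 ± 5.96 FPKM in cuprizone BTKi and 8.66 ± 0.184 FPKM in naive BTKi (log2 change 1.05, SE 0.25, adjusted p = 0.0069). P2ry12, the purinergic receptor of surveying microglia, was at 18.8, 20.2 and 24.7 FPKM (lowest, median and highest library) in cuprizone BTKi, against 23.0, 18.9, 20.4 and 20.9 FPKM in naive BTKi 1 to 4. P2ry12 was not called, at a log2 difference of 0.01 (SE 0.07, limma adjusted p = 0.947), and the groups overlapped almost completely. Tmem119, a membrane protein of resident microglia, was at 7.00 ± 1.17 FPKM in cuprizone BTKi and 6.79 ± 0.555 FPKM in naive BTKi (log2 change 0.03, SE 0.12, adjusted p = 0.932). The signs of these 2 small changes turned under some scalings and when single libraries were left out.

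The receptor of colony stimulating factor 1, which microglia need to survive, and its relatives were higher in 10 of 11 tested members. Csf1r was at 39.7 ± 5.98 FPKM in cuprizone BTKi and 21.8 ± 0.476 FPKM in naive BTKi (log2 change 0.84, SE 0.14, adjusted p = 0.000178). Csf3r, the receptor of granulocyte colony stimulating factor, was at 6.49 ± 1.61 FPKM in cuprizone BTKi and 2.16 ± 0.266 FPKM in naive BTKi (log2 change 1.36, SE 0.19, adjusted p = 3.57e-05). Irf8, a transcription factor of the myeloid lineage, was at 5.77 ± 1.502 FPKM in cuprizone BTKi and 1.68 ± 0.116 FPKM in naive BTKi (log2 change 1.49, SE 0.22, adjusted p = 5.42e-05).

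The target of the inhibitor and its partners were measured too. Btk was at 0.535, 0.726 and 1.16 FPKM (lowest, median and highest library) in cuprizone BTKi, against 0.367, 0.295, 0.256 and 0.468 FPKM in naive BTKi 1 to 4. Btk changed by 0.59 (SE 0.15, limma adjusted p = 0.0145), so its RNA was higher in cuprizone BTKi with no overlap, at a level near the filter. The gene Btk lies on chromosome X, from 134542336 to 134583570, on the minus strand. The call of Btk ended without naive BTKi 2 or 3, with adjusted p up to 0.0717. Of 20 tested genes of BTK signalling, 14 were higher and none lower (median 0.59). Ptpn6, the phosphatase SHP-1, was at 4.71 ± 0.981 FPKM in cuprizone BTKi and 1.59 ± 0.172 FPKM in naive BTKi (log2 change 1.30, SE 0.21, adjusted p = 0.000123). Rac2, a small GTPase of blood cells, was at 2.31 ± 0.965 FPKM in cuprizone BTKi and 0.873 ± 0.299 FPKM in naive BTKi (log2 change 1.00, SE 0.21, adjusted p = 0.00263). Pik3ap1, an adaptor of phosphoinositide 3-kinase, was at 2.07 ± 0.629 FPKM in cuprizone BTKi and 0.762 ± 0.188 FPKM in naive BTKi (log2 change 1.00, SE 0.21, adjusted p = 0.0019). Of 7 Fc receptors 5 were higher: the inhibitory receptor Fcgr2b was at 6.25 ± 1.78 FPKM in cuprizone BTKi and 1.93 ± 0.199 FPKM in naive BTKi (log2 change 1.44, SE 0.25, adjusted p = 0.000336). The activating receptor Fcgr3 was at 22.3 ± 6.06 FPKM in cuprizone BTKi and 8.07 ± 0.964 FPKM in naive BTKi (log2 change 1.38, SE 0.20, adjusted p = 5.61e-05). Fcer1g, the signalling chain of activating Fc receptors, was at 33.1 ± 9.43 FPKM in cuprizone BTKi and 12.9 ± 1.94 FPKM in naive BTKi (log2 change 1.29, SE 0.26, adjusted p = 0.00156). RNA levels do not report kinase activity, which was not measured.

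Complement genes were higher in 9 of 16 tested members. C4b, a component of the classical pathway, was at 17.4, 19.8 and 26.5 FPKM (lowest, median and highest library) in cuprizone BTKi, against 4.40, 5.84, 4.02 and 5.01 FPKM in naive BTKi 1 to 4. C4b changed by 1.99 (SE 0.13, limma adjusted p = 4.9e-10), and every cuprizone BTKi library was far above the naive range. The gene C4b lies on chromosome 17, from 34728380 to 34743882, on the minus strand. C1qa, a chain of the recognition molecule C1q, was at 70.9 ± 23.7 FPKM in cuprizone BTKi and 24.2 ± 1.94 FPKM in naive BTKi (log2 change 1.48, SE 0.24, adjusted p = 0.000187). C3, where the pathways meet, was at 1.58 ± 0.707 FPKM in cuprizone BTKi and 0.362 ± 0.131 FPKM in naive BTKi (log2 change 1.21, SE 0.26, adjusted p = 0.00263). Itgb2, the beta chain of complement receptor 3, was at 5.65 ± 1.81 FPKM in cuprizone BTKi and 1.47 ± 0.117 FPKM in naive BTKi (log2 change 1.60, SE 0.25, adjusted p = 0.000116). All 7 genes of the phagocyte NADPH oxidase, which makes superoxide, were higher. Its catalytic subunit Cybb was at 1.23 ± 0.274 FPKM in cuprizone BTKi and 0.0978 ± 0.0351 FPKM in naive BTKi (log2 change 1.52, SE 0.18, adjusted p = 5.79e-06). Its partner Cyba and the proton channel Hvcn1 changed by 1.29 and 1.29. Receptors and bridging proteins of phagocytosis were higher in 8 of 15, with Havcr2, the receptor TIM-3, at 2.19 ± 0.546 FPKM in cuprizone BTKi and 0.917 ± 0.129 FPKM in naive BTKi (log2 change 0.90, SE 0.18, adjusted p = 0.0013). Mertk, which binds dying cells, changed by 0.28, a call that ended without naive BTKi 2, with adjusted p up to 0.0696.

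**Figure D3:**
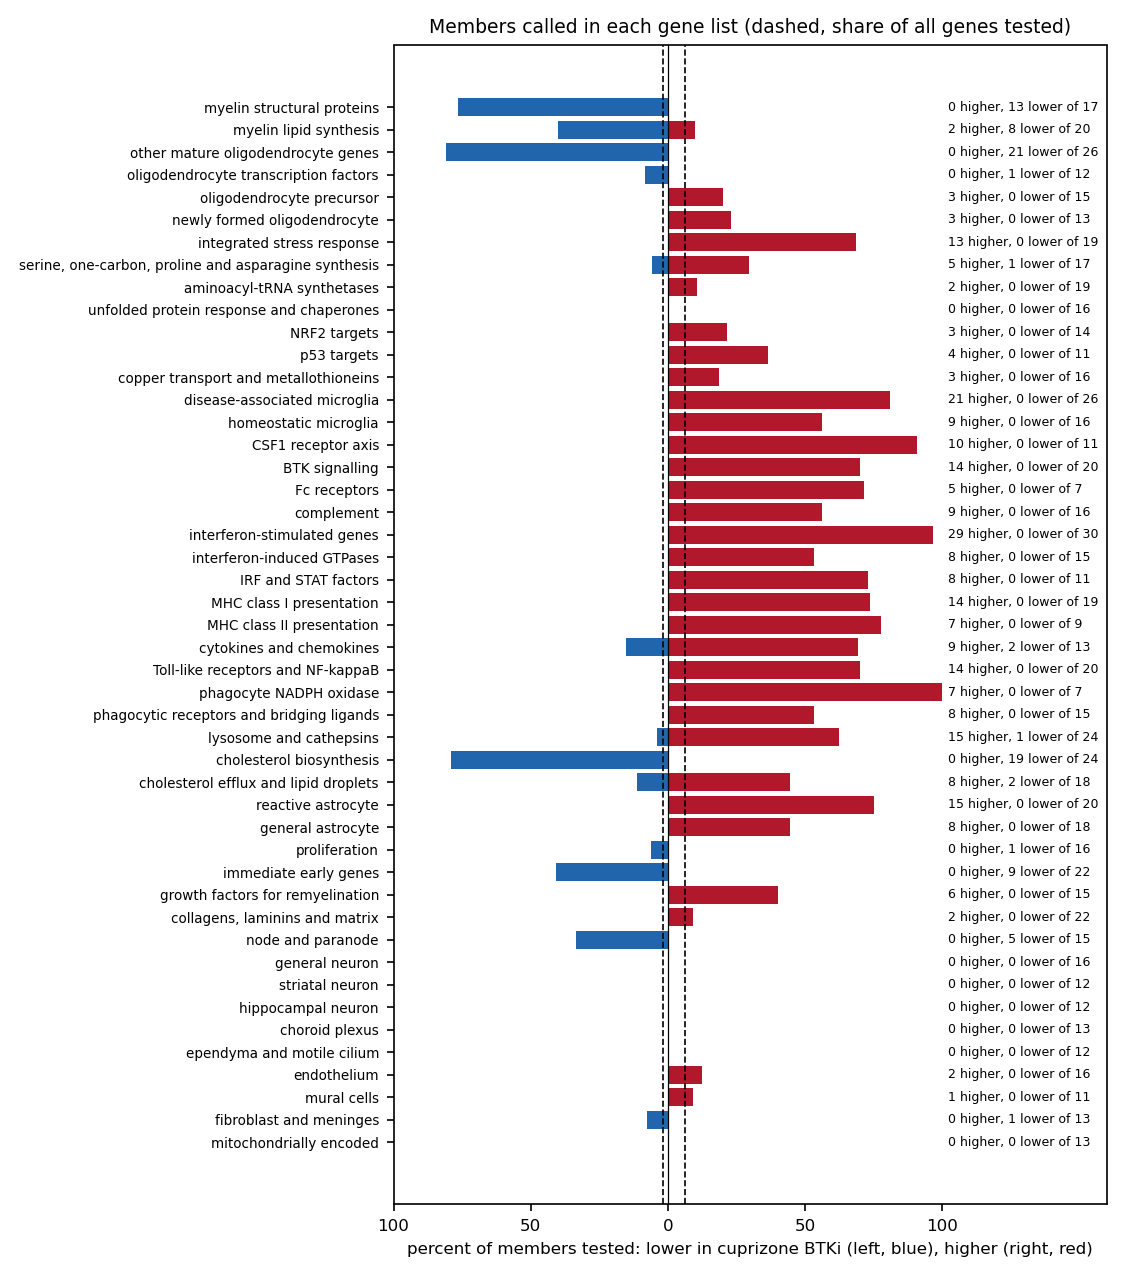
For each gene list with at least 7 tested members, the bar gives the percent of tested members called higher (red, right) or lower (blue, left) in cuprizone BTKi, with the counts at the right edge; dashed lines mark the shares over all genes tested, 6.11% higher and 1.77% lower. Interferon-stimulated genes (29 of 30) and the NADPH oxidase (7 of 7) have the longest red bars, and other mature oligodendrocyte genes (21 of 26) and cholesterol biosynthesis (19 of 24) the longest blue ones.

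Interferons act through STAT and IRF transcription factors, which switch on antiviral genes. Of 30 tested interferon-stimulated genes 29 were higher, with a median of 0.93, and Ifi35 alone was not called (0.33, adjusted p = 0.167). Oasl2, an oligoadenylate synthetase-like protein, was at 6.40, 8.45 and 11.6 FPKM (lowest, median and highest library) in cuprizone BTKi, against 2.14, 2.03, 2.79 and 2.77 FPKM in naive BTKi 1 to 4. Oasl2 changed by 1.62 (SE 0.18, limma adjusted p = 1.14e-06). The gene Oasl2 lies on chromosome 5, from 114896936 to 114912234, on the plus strand. Ifit1, which binds viral RNA caps, was at 2.01, 2.98 and 3.75 FPKM (lowest, median and highest library) in cuprizone BTKi, against 0.929, 0.886, 1.35 and 1.07 FPKM in naive BTKi 1 to 4. Ifit1 changed by 1.08 (SE 0.16, limma adjusted p = 7.01e-05). In both genes the groups were apart. Ifi27l2a was at 4.61 ± 1.63 FPKM in cuprizone BTKi and 0.733 ± 0.573 FPKM in naive BTKi (log2 change 2.09, SE 0.33, adjusted p = 0.000134). Lgals3bp, a secreted galectin-binding protein, was at 37.5 ± 10.3 FPKM in cuprizone BTKi and 10.6 ± 2.10 FPKM in naive BTKi (log2 change 1.74, SE 0.23, adjusted p = 2.12e-05). The DNA sensor Ifi204 was at 2.43 ± 0.874 FPKM in cuprizone BTKi and 0.130 ± 0.0703 FPKM in naive BTKi (log2 change 2.17, SE 0.28, adjusted p = 9.7e-06). Interferon-induced GTPases were higher in 8 of 15, with Gbp2, Gbp3, Gbp6 and Irgm1 changed by 0.99, 1.08, 1.22 and 0.77. Ifit3 and Ifit3b, Tgtp1 and Tgtp2, and members of the Gbp and Ifi200 families are near-identical copies whose fragments the counting could share, so values of single members are uncertain.

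Among IRF and STAT factors 8 of 11 were higher. Irf7, which amplifies type I interferon production, was at 4.82 ± 1.32 FPKM in cuprizone BTKi and 1.41 ± 0.211 FPKM in naive BTKi (log2 change 1.45, SE 0.19, adjusted p = 2.09e-05). Irf5 was at 3.68 ± 0.794 FPKM in cuprizone BTKi and 1.57 ± 0.347 FPKM in naive BTKi (log2 change 1.01, SE 0.17, adjusted p = 0.000223). Genes of MHC class I presentation were higher in 14 of 19, but the count of calls was 8 without naive BTKi 3 and 9 without naive BTKi 1. The light chain B2m was at 178 ± 34.7 FPKM in cuprizone BTKi and 90.2 ± 3.92 FPKM in naive BTKi (log2 change 0.96, SE 0.16, adjusted p = 0.000206). The heavy chains H2-D1 and H2-K1 each changed by 0.97. Genes of MHC class II presentation were higher in 7 of 9, with the invariant chain Cd74 at 15.1 ± 4.13 FPKM in cuprizone BTKi and 3.71 ± 1.61 FPKM in naive BTKi (log2 change 1.92, SE 0.26, adjusted p = 2.26e-05). H2-Aa was at 3.44 ± 0.909 FPKM in cuprizone BTKi and 1.32 ± 0.427 FPKM in naive BTKi (log2 change 1.10, SE 0.22, adjusted p = 0.00119). H2 genes are close relatives of one another, and the sources used here do not say how shared fragments were counted.

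The interferon-stimulated response element was searched as GAAA, any 2 bases and GAAA again, on either strand, in the same part of the promoters. It was present in 2.98% of all 32851 promoters. Among promoters of the lists it was in 40.7% of 27 for interferon-stimulated genes and in 81.8% of 11 for interferon-induced GTPases. At least 1 promoter held it in 11 of 24 matched interferon-stimulated genes and in 9 of 10 matched interferon-induced GTPases. Of the GTPases that held it, Irgm2 (0.27, limma adjusted p = 0.104), Tgtp1 (-0.23, adjusted p = 0.572) and Tgtp2 (0.02, adjusted p = 0.975) were not called. Windows of 110 bases show the response element in 4 members that rose, with its letters in capitals, 5′ to 3′ on the strand of the gene. They describe letters and not binding. The windows lie, in GRCm38.p6, with Ifit1 at chr19:34640744-34640853 on the plus strand, Isg15 at chr4:156200831-156200940 on the minus strand, Irgm1 at chr11:48871421-48871530 on the minus strand and Gbp2 at chr3:142620553-142620662 on the plus strand.
Ifit1: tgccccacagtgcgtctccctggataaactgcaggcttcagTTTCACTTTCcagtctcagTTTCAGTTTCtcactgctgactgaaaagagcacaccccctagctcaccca
Isg15: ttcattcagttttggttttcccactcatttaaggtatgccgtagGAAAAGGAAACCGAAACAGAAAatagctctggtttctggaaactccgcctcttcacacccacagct
Irgm1: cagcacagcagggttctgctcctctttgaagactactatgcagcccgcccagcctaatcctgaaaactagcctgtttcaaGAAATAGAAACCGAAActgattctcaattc
Gbp2: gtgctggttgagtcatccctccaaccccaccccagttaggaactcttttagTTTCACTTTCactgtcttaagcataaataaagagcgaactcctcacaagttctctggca
Overlapping matches run together in Isg15, a ubiquitin-like protein (1.20), and in Irgm1. Oasl2 and Lgals3bp, with larger changes than any of these, had no match in the part of the promoter searched.

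Of 13 tested cytokines and chemokines 9 were higher and 2 lower. Ccl3, a chemokine of activated microglia, was at 2.56, 4.30 and 5.36 FPKM (lowest, median and highest library) in cuprizone BTKi, against 0.0870, 0.258, 0.561 and 0.258 FPKM in naive BTKi 1 to 4. Ccl3 changed by 2.56 (SE 0.27, limma adjusted p = 8.27e-07). The gene Ccl3 lies on chromosome 11, from 83647844 to 83649355, on the minus strand. Its neighbour Ccl4 was listed at 0 in all naive BTKi libraries but naive BTKi 3, which had 0.1003 FPKM, and had a mean of 2.21 ± 0.874 FPKM in cuprizone BTKi. Cxcl10, an interferon-induced chemokine that draws T cells, was at 3.18, 4.42 and 6.98 FPKM (lowest, median and highest library) in cuprizone BTKi, against 0.244, 0.421, 0.635 and 0.452 FPKM in naive BTKi 1 to 4. Cxcl10 changed by 2.47 (SE 0.25, limma adjusted p = 4.78e-07). In both chemokines the lowest cuprizone BTKi library exceeded the highest naive one. Lower were Il33, an alarmin held in the nuclei of oligodendrocytes and astrocytes, at 15.8 ± 3.86 FPKM in cuprizone BTKi and 25.04 ± 0.872 FPKM in naive BTKi (log2 change -0.68, SE 0.13, adjusted p = 0.0011), and the neuronal chemokine Cx3cl1 (-0.19), whose call ended without naive BTKi 2 or 3, with adjusted p up to 0.085. Of 20 genes of Toll-like receptors and NF-kappaB 14 were higher, with Tlr2, a receptor of bacterial lipoproteins, at 1.91 ± 0.438 FPKM in cuprizone BTKi and 0.346 ± 0.0673 FPKM in naive BTKi (log2 change 1.49, SE 0.22, adjusted p = 5.61e-05). Its partner Cd14 was at 3.83 ± 0.764 FPKM in cuprizone BTKi and 1.16 ± 0.0215 FPKM in naive BTKi (log2 change 1.37, SE 0.15, adjusted p = 2.05e-06). Ly86 was at 20.5 ± 7.98 FPKM in cuprizone BTKi and 7.31 ± 0.588 FPKM in naive BTKi (log2 change 1.35, SE 0.27, adjusted p = 0.00132). Among 8 cytokines below the filter were Tnf, Il6 and Il1b, with means of 0.0509, 0.0589 and 0.338 FPKM in cuprizone BTKi. Their naive BTKi means were 0.0214, 0.0213 and 0.159 FPKM. All 8 had the higher mean in cuprizone BTKi, but none of them was tested.

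Lysosomal genes were higher in 15 of 24 and lower in 1. Ctss, the cathepsin that cleaves the invariant chain, was at 104 ± 24.5 FPKM in cuprizone BTKi and 32.9 ± 1.82 FPKM in naive BTKi (log2 change 1.61, SE 0.21, adjusted p = 1.62e-05). Ctsz was at 49.3 ± 14.0 FPKM in cuprizone BTKi and 22.7 ± 2.99 FPKM in naive BTKi (log2 change 1.07, SE 0.22, adjusted p = 0.00203). Npc1, which exports cholesterol from lysosomes, was the lower one, at 14.6 ± 1.03 FPKM in cuprizone BTKi and 17.4 ± 0.260 FPKM in naive BTKi (log2 change -0.25, SE 0.05, adjusted p = 0.00296). The count of called members was 10 without cuprizone BTKi 8 and naive BTKi 1.

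Myelin is rich in cholesterol, which oligodendrocytes make themselves, under control of the transcription factor SREBP2. Of 24 tested genes of the pathway 19 were lower and none higher, with a median of -0.38. Idi1, an isomerase early in the pathway, was at 10.2, 12.4 and 14.5 FPKM (lowest, median and highest library) in cuprizone BTKi, against 19.0, 19.0, 18.2 and 19.3 FPKM in naive BTKi 1 to 4. Idi1 changed by -0.60 (SE 0.07, limma adjusted p = 4.26e-06). The gene Idi1 lies on chromosome 13, from 8885501 to 8892451, on the plus strand. Msmo1, a methylsterol oxidase, was at 24.2, 29.8 and 31.4 FPKM (lowest, median and highest library) in cuprizone BTKi, against 47.6, 43.6, 41.4 and 45.2 FPKM in naive BTKi 1 to 4. Msmo1 changed by -0.61 (SE 0.06, limma adjusted p = 3.37e-07). The gene Msmo1 lies on chromosome 8, from 64718139 to 64733792, on the minus strand. The groups were apart in both genes, and the spread within each was small. In the same promoter search, the letters TCACNCCAC of the sterol regulatory element were in 1 of 20 promoters of this list (5%). Of 17 matched genes only Hmgcs1 held them. The share over all 32851 promoters was 1.05%.

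Genes of cholesterol efflux and lipid droplets moved both ways, 8 higher and 2 lower of 18, and the calls fell to 6 without naive BTKi 3. Abca1, which loads cholesterol onto apolipoproteins, was at 7.97 ± 0.814 FPKM in cuprizone BTKi and 3.75 ± 0.247 FPKM in naive BTKi (log2 change 0.99, SE 0.11, adjusted p = 1.51e-06), whereas Abca2, a transporter of the same family in oligodendrocytes, was at 33.9 ± 2.29 FPKM in cuprizone BTKi and 43.6 ± 1.41 FPKM in naive BTKi (log2 change -0.36, SE 0.06, adjusted p = 0.000254). Apoc1 (1.55) and Ch25h, which makes 25-hydroxycholesterol (1.12), were called, but the call of Apoc1 ended without naive BTKi 1 or 3, with adjusted p up to 0.0652 and that of Ch25h without cuprizone BTKi 8 or naive BTKi 1, 2 or 3, with adjusted p up to 0.0993.

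Reactive astrocyte genes were higher in 15 of 20 tested members, with a median of 0.75. Gfap, the intermediate filament of astrocytes, was at 197, 225 and 299 FPKM (lowest, median and highest library) in cuprizone BTKi, against 57.2, 66.1, 54.3 and 64.3 FPKM in naive BTKi 1 to 4. Gfap changed by 1.93 (SE 0.13, limma adjusted p = 5.93e-10). The gene Gfap lies on chromosome 11, from 102887336 to 102900912, on the minus strand. The lowest cuprizone BTKi library lay far above the highest naive one. Lcn2, an iron-binding secreted protein, was at 0.428, 4.27 and 11.7 FPKM (lowest, median and highest library) in cuprizone BTKi, against 0.328, 0.0445, 0.145 and 0.109 FPKM in naive BTKi 1 to 4. Lcn2 changed by 2.60 (SE 0.69, limma adjusted p = 0.0158), with a wide spread among cuprizone BTKi libraries, and its call ended without naive BTKi 2, with adjusted p up to 0.0521. General astrocyte genes were higher in 8 of 18, with a median of 0.24. Slc1a3, a glutamate transporter, was at 139.8 ± 7.51 FPKM in cuprizone BTKi and 101 ± 4.10 FPKM in naive BTKi (log2 change 0.47, SE 0.07, adjusted p = 3.26e-05). Mlc1, a membrane protein of astrocyte end-feet, was at 61.6 ± 3.82 FPKM in cuprizone BTKi and 47.0 ± 0.941 FPKM in naive BTKi (log2 change 0.38, SE 0.05, adjusted p = 1.36e-05). The bicarbonate transporter Slc4a4 was at 24.3 ± 1.29 FPKM in cuprizone BTKi and 19.1 ± 1.03 FPKM in naive BTKi (log2 change 0.34, SE 0.06, adjusted p = 0.000331), while the water channel Aqp4 had a log2 change of 0.24 (adjusted p = 0.185).

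Immediate early genes need no new protein to be switched on and answer a stimulus first. They were lower in 9 of 22 and higher in none (median -0.26). Nr4a1, an orphan nuclear receptor, was at 26.8, 32.6 and 40.2 FPKM (lowest, median and highest library) in cuprizone BTKi, against 63.2, 56.0, 57.0 and 57.0 FPKM in naive BTKi 1 to 4. Nr4a1 changed by -0.84 (SE 0.09, limma adjusted p = 1.09e-06). The gene Nr4a1 lies on chromosome 15, from 101254269 to 101274795, on the plus strand. Arc, a regulator of synaptic strength made on neuronal activity, was at 48.6, 60.6 and 91.1 FPKM (lowest, median and highest library) in cuprizone BTKi, against 127, 116, 117 and 111 FPKM in naive BTKi 1 to 4. Arc changed by -0.87 (SE 0.13, limma adjusted p = 4.71e-05). The gene Arc lies on chromosome 15, from 74669083 to 74672570, on the minus strand. Junb, which joins Fos proteins in AP-1, was at 24.3, 27.7 and 32.8 FPKM (lowest, median and highest library) in cuprizone BTKi, against 47.9, 41.3, 40.8 and 43.5 FPKM in naive BTKi 1 to 4. Junb changed by -0.63 (SE 0.10, limma adjusted p = 8.74e-05). The gene Junb lies on chromosome 8, from 84974484 to 84978718, on the minus strand. In each of these genes every cuprizone BTKi library lay below every naive BTKi library. Egr2 (-0.57), Egr4 (-0.29), Ier2 (-0.49), Dusp1 (-0.47), Dusp6 (-0.25) and Csrnp1 (-0.46) were also called, and Fos was at 14.4 ± 2.09 FPKM in cuprizone BTKi and 17.4 ± 1.80 FPKM in naive BTKi (log2 change -0.28, SE 0.10, adjusted p = 0.118). Over all genes tested 1.77% were lower. Egr2, Egr4, Ier2, Dusp1 and Csrnp1 are named here after their values were seen.

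Whether these changes differed under vehicle was tested by the difference of the 2 changes, BTKi minus vehicle; the comparisons share no library. Under vehicle 1555 genes were higher (10.2%) and 733 lower (4.82%). Of the genes called under BTKi 73.0% were called the same way under vehicle, which is 38.2% of the vehicle calls. A call in one comparison and not in the other is no test of a difference: of 319 genes called under BTKi alone, the difference was called for 4. It was called for 19 genes in all (0.125%), 18 of them with a negative difference (0.118%) and Btg2 with a positive one (0.00657%). An unadjusted limma p under 0.05 was reached by 1482 of the 15216 genes tested, a share above the 0.05 that would fall there if no gene differed. The count of called differences was 11 without naive BTKi 3 and 8 without naive BTKi 4. Markers of neighbouring tissue moved in the vehicle comparison. Of 12 striatal neuron genes 0 were called by limma under BTKi, with a median log2 change of -0.30. Unadjusted limma p under BTKi was under 0.05 for 1 of them, against 2811 of all 15216 genes tested. Under vehicle 12 striatal genes were lower, with a median of -0.94. The choroid plexus median was -0.24 under BTKi, with no gene called, and -1.19 under vehicle, with 1 gene lower. No difference was called for a member of either list, and the part of tissue content in the differences was not tested.

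The 4 genes called under BTKi alone were Nr4a1, Arc, Junb and Trib1, a pseudokinase. Nr4a1 averaged 32.6 ± 4.20 FPKM in cuprizone BTKi, 58.3 ± 3.30 FPKM in naive BTKi, 63.7 ± 6.93 FPKM in cuprizone vehicle and 61.2 ± 7.17 FPKM in naive vehicle (SD; n = 8, 4, 8 and 4), and the difference of the changes was -0.90 (SE 0.13, adjusted p = 0.00187). Arc averaged 65.3 ± 13.6 FPKM in cuprizone BTKi, 118 ± 6.72 FPKM in naive BTKi, 129 ± 21.2 FPKM in cuprizone vehicle and 114 ± 10.5 FPKM in naive vehicle, with a difference of -1.03 (SE 0.18, adjusted p = 0.0103). Junb averaged 28.0 ± 3.09 FPKM in cuprizone BTKi, 43.4 ± 3.24 FPKM in naive BTKi, 51.2 ± 7.61 FPKM in cuprizone vehicle and 48.7 ± 5.47 FPKM in naive vehicle, with a difference of -0.70 (SE 0.14, adjusted p = 0.0305). In each of these 3 genes the cuprizone BTKi mean was the low one and the other 3 group means were close to one another. The highest cuprizone BTKi library was below the lowest cuprizone vehicle library in Nr4a1, at 40.2 against 54.5 FPKM, in Arc, at 91.1 against 101 FPKM, and in Junb, at 32.8 against 41.6 FPKM. These genes were picked by the difference of the same values, so the separation is no further support. Its share over all genes was not counted.

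In 5 genes the change was called in both comparisons with opposite signs, lower under BTKi and higher under vehicle. They were the phosphatases Dusp5 (-0.37 under BTKi, 0.31 under vehicle) and Dusp6 (-0.25 and 0.29), which switch off MAP kinases, the zinc finger factor Klf10 (-0.41 and 0.40), the clock gene Per1 (-0.24 and 0.43) and the kinase Plk3 (-0.22 and 0.32). The BTKi call of Dusp6 ended without naive BTKi 3 or 4, with adjusted p up to 0.12, that of Per1 without cuprizone BTKi 4 or 8 or naive BTKi 2 or 4, with adjusted p up to 0.141 and that of Plk3 without naive BTKi 1 or 2, with adjusted p up to 0.128. The other 10 were called under vehicle alone, and Btg2, Stk40 and Frmd6 are the ones the rule names. Btg2, an antiproliferative gene, averaged 4.91 ± 0.489 FPKM in cuprizone BTKi, 5.30 ± 0.137 FPKM in naive BTKi, 6.80 ± 0.782 FPKM in cuprizone vehicle and 12.4 ± 1.55 FPKM in naive vehicle. Stk40, a serine/threonine kinase-like protein, averaged 14.3 ± 0.865 FPKM in cuprizone BTKi, 13.5 ± 0.217 FPKM in naive BTKi, 15.3 ± 0.901 FPKM in cuprizone vehicle and 10.5 ± 0.366 FPKM in naive vehicle. Frmd6 averaged 9.75 ± 0.856 FPKM in cuprizone BTKi, 11.6 ± 0.906 FPKM in naive BTKi, 12.1 ± 0.789 FPKM in cuprizone vehicle and 7.25 ± 1.25 FPKM in naive vehicle. In these 3 the naive vehicle mean was the one that stood apart. For these 3 genes the differences were 0.72 (SE 0.12, adjusted p = 0.00543), -0.44 (SE 0.07, adjusted p = 0.00254) and -0.95 (SE 0.11, adjusted p = 0.000155).

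For the lists with the most calls no difference was called. The myelin list had a median of -0.77 under BTKi and -1.30 under vehicle, and no member's difference was called. Mbp had a difference of 0.51 (SE 0.22, adjusted p = 0.467) and Mal one of 0.56 (SE 0.29, adjusted p = 0.541), so differences of that size were not resolved with these samples. The medians under BTKi and under vehicle were 1.09 and 1.24 for disease-associated microglia, 0.93 and 1.28 for interferon-stimulated genes, -0.38 and -0.28 for cholesterol biosynthesis and 0.75 and 0.97 for reactive astrocytes. For the genes nearest the inhibitor the differences were -0.21 (SE 0.22, adjusted p = 0.779) for Btk, -0.05 (SE 0.35, adjusted p = 0.977) for Fcgr2b and 0.03 (SE 0.41, adjusted p = 0.984) for Clec7a.

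**Figure D4:**
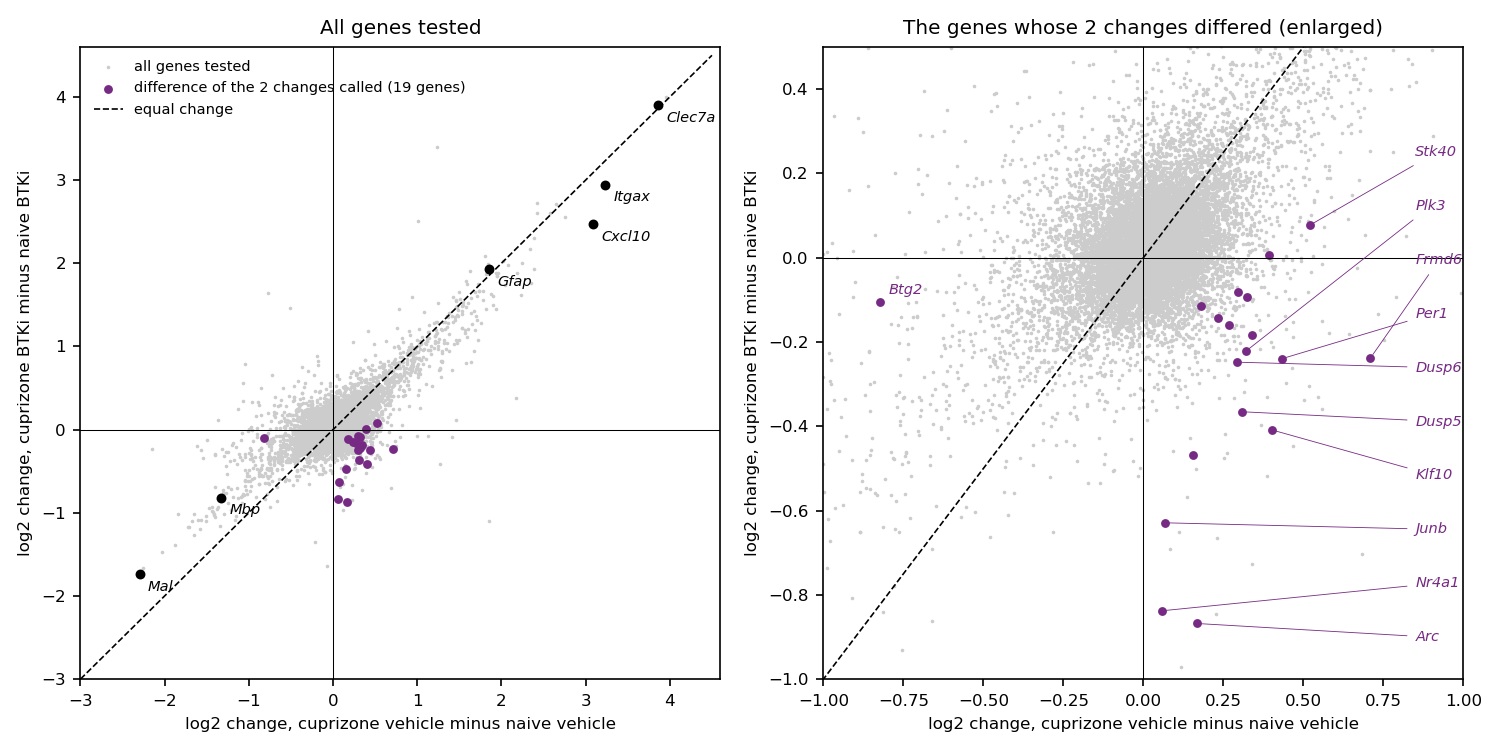
Log2 change under BTKi (vertical) against log2 change under vehicle (horizontal) for the 15216 genes tested, with an enlarged view at the right; purple points are the 19 genes whose 2 changes differed, black points are labelled genes described above, and the dashed line marks equal change. Nr4a1, Arc and Junb lie near 0 on the horizontal axis and at -0.84, -0.87 and -0.63 on the vertical one, whereas Btg2 lies at -0.82 under vehicle.

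The 8 cuprizone BTKi libraries were not alike. A list level is the mean log2 value of its tested members in a library, relative to the mean of all 24 libraries. The level of disease-associated microglia ran from 0.05 in cuprizone BTKi 1 to 1.03 in cuprizone BTKi 8, against -1.01 to -0.90 in naive BTKi. The level of structural myelin genes ran from -0.62 in cuprizone BTKi 6 to 0.31 in cuprizone BTKi 4, against 0.46 to 0.48 in naive BTKi. The library with the lowest myelin level was thus not the one with the highest microglial level. Cholesterol biosynthesis ran over a narrow range, from -0.22 to -0.09 in cuprizone BTKi, against 0.17 to 0.24 in naive BTKi. The levels are descriptions and no test was made on them.

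**Figure D5:**
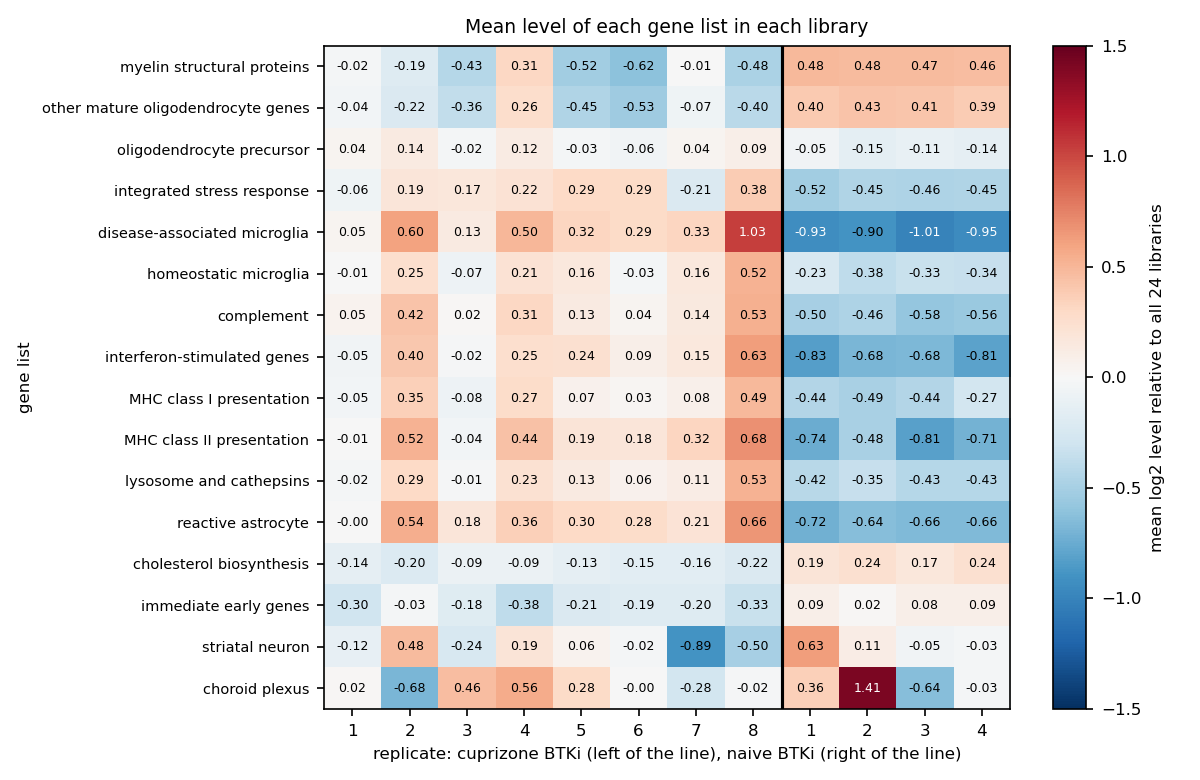
Mean log2 level of 16 gene lists relative to all 24 libraries, in cuprizone BTKi 1 to 8 (left of the line) and naive BTKi 1 to 4 (right). Cuprizone BTKi 8 has the highest level of disease-associated microglia (1.03) and of interferon-stimulated genes (0.63), and the striatal and choroid plexus rows vary from library to library in both groups.

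Markers of other cells and of neighbouring tissue bear on these values. None of 16 general neuron genes was called by limma. The count was 1 without cuprizone BTKi 2 or 4, 2 after median ratio scaling and 3 with array weights. Rbfox3, the nuclear protein NeuN, was at 129 ± 4.89 FPKM in cuprizone BTKi and 139 ± 3.39 FPKM in naive BTKi (log2 change -0.11, SE 0.05, adjusted p = 0.273). The summed level of 12 striatal neuron genes ran from 176 to 425 FPKM in cuprizone BTKi and 304 to 479 FPKM in naive BTKi, with no member called and Drd1, a dopamine receptor, at 4.55 ± 1.34 FPKM in cuprizone BTKi and 5.78 ± 1.26 FPKM in naive BTKi. The 13 choroid plexus genes summed to 550.1 to 1610.0 FPKM in cuprizone BTKi and 688 to 3163 FPKM in naive BTKi, again with no member called. None of 12 hippocampal or 12 ependymal genes was called. Unadjusted p was under 0.05 for 4 general neuron, 1 striatal, 0 hippocampal, 0 choroid plexus and 0 ependymal genes. Without cuprizone BTKi 2 and naive BTKi 2, the choroid plexus extremes, 840 genes were called, and without cuprizone BTKi 7 and naive BTKi 1, the striatal extremes, 938. The part of this tissue in the immediate early gene values was not tested.

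Most genes of the lymphocyte, neutrophil and monocyte lists fell below the filter. Of 10 B cell genes 3 reached the filter, and Cd22, a sialic acid-binding receptor found on B cells and on microglia, was the only one called, at 1.22 ± 0.346 FPKM in cuprizone BTKi and 0.107 ± 0.0690 FPKM in naive BTKi (log2 change 1.48, SE 0.18, adjusted p = 7.83e-06). Of 15 T and NK cell genes 4 were tested and none called (1 with an unadjusted p under 0.05). Of 12 neutrophil genes only Csf3r was tested, and the neutrophil genes Ly6g and Camp were listed at 0 in all 12 libraries. Of 14 genes of monocytes and border macrophages 4 were tested, and the 2 called, Lyz2 and Cd52, are also made by activated microglia. Lyz2, the myeloid lysozyme, was at 24.5 ± 8.25 FPKM in cuprizone BTKi and 3.44 ± 0.426 FPKM in naive BTKi (log2 change 2.61, SE 0.27, adjusted p = 8.55e-07). Cd52, a leukocyte surface glycoprotein, was at 22.4 ± 9.03 FPKM in cuprizone BTKi and 2.82 ± 0.215 FPKM in naive BTKi (log2 change 2.71, SE 0.32, adjusted p = 3.98e-06). The monocyte list summed to 34.2 to 86.1 FPKM in cuprizone BTKi and 8.70 to 10.2 FPKM in naive BTKi. By their means, Lyz2 and Cd52 carried most of this sum in both groups. The members below the filter were low in both groups and moved both ways. In cuprizone BTKi and naive BTKi, Ccr2 averaged 0.075 and 0.085 FPKM and Clec10a 0.34 and 0.41 FPKM. Ly6c2 averaged 0.19 and 0.11 FPKM and Ms4a7 0.41 and 0.29 FPKM. The part of the monocyte list in the microglial values was not tested. Mrc1, the mannose receptor of border macrophages, was at 0.794 ± 0.0931 FPKM in cuprizone BTKi and 0.743 ± 0.09995 FPKM in naive BTKi (log2 change 0.06, SE 0.10, adjusted p = 0.8292). All 16 endothelial genes passed the filter and summed to 191 to 234 FPKM in cuprizone BTKi and 180.2 to 198 FPKM in naive BTKi. Among them 2 were higher (12.5%, against 6.11% of all genes tested), Nostrin (0.63) and Icam1, an adhesion molecule that leukocytes bind (0.92). Cldn5, the claudin of the blood-brain barrier, had a log2 change of -0.03 (adjusted p = 0.903).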

How the data were processed

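Polyadenylated RNA of corpus callosum was purified on Qiagen RNeasy Micro columns and made into TruSeq stranded mRNA libraries, per the labels' protocols. The authors deposited 1 table of FPKM values, scaled to gene length and library size, for 54446 versioned Ensembl genes and 24 libraries. The sources used here name no aligner, counter, build or annotation. Coordinates are from GENCODE M21 (GRCm38) where the versioned ID matched (53229 genes), symbols matched for 54409, and promoters are RefSeq sequences of GRCm38.p6. FPKM falls when other genes take more of a library. Of low values 88.7% to 90.2% lay within 0.1 of a whole number of fragments (20% by chance), which gives relative depth only.

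Genes with a mean of at least 0.5 FPKM (15216) were tested on log2(FPKM + 0.5), which understates changes of low genes, with limma 3.58.1 in R 4.3.3 (eBayes with a trend). All 4 groups entered 1 model without covariates, with Benjamini-Hochberg adjustment over all genes at 0.05. The difference of the 2 cuprizone changes was a contrast of the same fit. Library measures were compared by exact permutation over 495 splits. The script was tested on simulated data. Python 3.11.15, pandas 2.3.3, numpy 2.4.6, scipy 1.17.1 and matplotlib 3.10.9 were used. The genes, the 52 lists and the tests were chosen with earlier results of these data known. Named genes were the 15 largest called, non-overlapping changes each way, the defining genes and up to 3 largest called members each way of each list, and up to 10 genes whose 2 changes differed. Alternatives were other pseudocounts, filters, scalings, weights, a replicate block, the 12 BTKi libraries alone and each library left out. In 34 pairs of replicates the SD of log2 differences was 0.208 to 0.293, so no columns were identical. The main tests used every library. Some genes of the lists are not reported here.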

Additional observations from a re-analysis of the deposited data

Results flagged for a closer look

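In a group, a library was marked when its gap to the nearest other library was too large a part of the group's range by Dixon's test. Chance marks about 1 in 20 groups, and 24 of 336 tests on the named genes were marked. Cuprizone BTKi 8 stood out upward in 6 genes. The values were Fcgr2b (10.3 FPKM, others 4.63 to 6.72), Fcrls (33.4 FPKM, others 14.9 to 18.8), Fn1 (18.1 FPKM, others 10.8 to 13.1), Lgals3 (8.29 FPKM, others 3.77 to 5.38), Mlc1 (70.7 FPKM, others 59.3 to 62.5) and Tyrobp (95.1 FPKM, others 34.8 to 56.1). In cuprizone BTKi 4 the marked values were Dcn (13.7 FPKM, others 7.16 to 9.06), Fos (9.72 FPKM, others 13.6 to 16.5), Hspa5 (75.4 FPKM, others 84.4 to 92.6) and Slc6a9 (22.0 FPKM, others 12.5 to 15.7). Cuprizone BTKi 7 was low in Nqo1 (1.503 FPKM, others 2.02 to 2.60). In naive BTKi 1 they were Cldn11 (100.1 FPKM, others 105 to 106), Cntn2 (25.9 FPKM, others 28.7 to 29.2), Fcer1g (15.8 FPKM, others 11.5 to 12.2), Gbp6 (0.529 FPKM, others 0.798 to 0.846), Nr4a1 (63.2 FPKM, others 56.0 to 57.0), Stk40 (13.2 FPKM, others 13.6 to 13.6) and mt-Nd1 (10357 FPKM, others 7828 to 8191). Naive BTKi 2 was marked for Gbp2 (1.57 FPKM, others 2.12 to 2.21), Ifi204 (0.235 FPKM, others 0.0921 to 0.0990) and Mertk (8.79 FPKM, others 9.97 to 10.2). Naive BTKi 3 was marked for Ccl4 (0.1003 FPKM, others listed at 0), Mthfd2 (3.21 FPKM, others 2.73 to 2.78) and Ugt8a (16.2 FPKM, others 13.5 to 13.8).

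Of the library measures, total FPKM was 496350.0 in naive BTKi 1 against 464791 to 465557 in the other 3. The haemoglobin share was 0.0873% in cuprizone BTKi 3 against 0.0125% to 0.0346% in the other 7. The relative depth read from low values was 2.64e+07 on a nominal fragment scale in cuprizone BTKi 5 against 3.03e+07 to 3.08e+07 in the other 7. Without cuprizone BTKi 3, 1164 genes were called, and without cuprizone BTKi 5, 1155.

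The change under BTKi differed from the change under vehicle by the interaction term of the limma fit in named genes as follows, on the log2 scale: Arc -1.03 (adjusted p = 0.0103), Btg2 0.72 (adjusted p = 0.00543), Dusp5 -0.67 (adjusted p = 0.0141), Dusp6 -0.54 (adjusted p = 0.0141), Frmd6 -0.95 (adjusted p = 0.000155), Junb -0.70 (adjusted p = 0.0305), Klf10 -0.81 (adjusted p = 0.00548), Nr4a1 -0.90 (adjusted p = 0.00187), Per1 -0.67 (adjusted p = 0.00187), Plk3 -0.54 (adjusted p = 0.00543) and Stk40 -0.44 (adjusted p = 0.00254).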

How the results depend on the processing

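Of 24 alternatives, 3 were added after the data were seen; these leave out 1 library of each group and are named in the report. The 1198 calls ran from 860 to 1191 when 1 library was left out, the 929 higher from 661 to 940, the 269 lower from 196 to 299 and the 318 list members from 266 to 324. Genes called lower moved to 406 after median ratio scaling and 439 with array weights, and genes called higher to 593 without cuprizone BTKi 8 and naive BTKi 1. The 19 called differences moved to 12 without these 2 libraries, to 10 without cuprizone BTKi 7 and naive BTKi 1, and ran from 8 to 23 when 1 library was left out.

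No pairing of the samples by replicate number was seen: deviations of libraries with the same number correlated at -0.138 to -0.0522, and for 0 of 4 numbers was the correlation highest with the same number. With 4 numbers a small shared effect could be missed. With the replicate block 1009 genes were called, 802 higher and 207 lower, and the called differences were 9.

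Of 140 called named genes 28 lost the call in at least 1 alternative, 27 of them when 1 library was left out. No called gene changed sign. Among genes not called, the sign of the log2 change turned for Dcn (5.04e-05) with a pseudocount of 1; Dcn (0.00105) and mt-Nd1 (0.0294) without the 2 libraries that stand apart most; Dcn (0.0474), Foxj1 (0.0893), P2ry12 (-0.0422) and Ttr (0.37) without the choroid plexus extremes; Foxj1 (0.0249) with array weights; Mrc1 (-0.0354), Pdgfrb (-0.0469), Tmem119 (-0.0145) and mt-Nd1 (0.0643) after quantile normalization; P2ry12 (-0.0135) and Pdgfrb (-0.0177) after median ratio scaling; Tmem119 (-0.0012) with the replicate block; mt-Nd1 (0.0285) without the striatal extremes. Leaving out 1 library, the changes of such genes ran as follows: Cldn5 -0.0669 to 0.0286, Dcn -0.0878 to 0.0464, Foxj1 -0.0813 to 0.13, P2ry12 -0.0298 to 0.0626, Pdgfrb -0.0242 to 0.0726, Tmem119 -0.0254 to 0.0764, Ttr -0.60 to 0.21, mt-Nd1 -0.0912 to 0.0434. Counts of calls moved by over 1.5 times in at least 1 alternative in 17 of 52 lists, among them p53 targets, metallothioneins, growth factors and oligodendrocyte precursors. Depth limits genes near 0.5 FPKM, and 4 naive BTKi libraries limit every comparison. The causes of these shifts were not tested.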

Other observations

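Other stress and repair genes moved in part. Of 11 tested p53 targets 4 were higher, and the count was 2 without cuprizone BTKi 2 or naive BTKi 1, 2, 3 or 4. Cdkn1a, the cell cycle inhibitor p21, was at 17.2 ± 3.68 FPKM in cuprizone BTKi and 8.72 ± 0.955 FPKM in naive BTKi (log2 change 0.91, SE 0.16, adjusted p = 0.000344). The calls of Aen (0.24) and Phlda3 (0.27) ended without naive BTKi 2 or 4, with adjusted p up to 0.0848 and without cuprizone BTKi 2, 4 or 8 or naive BTKi 1, 3 or 4, with adjusted p up to 0.13. Of 14 NRF2 targets 3 were higher. Hmox1, which breaks down haem, was at 6.70 ± 1.90 FPKM in cuprizone BTKi and 3.12 ± 0.211 FPKM in naive BTKi (log2 change 0.95, SE 0.18, adjusted p = 0.000872). The others were the ferritin light chain Ftl1 (0.37) and Slc7a11, which is also on the integrated stress response list. Nqo1, a quinone reductase, was at 2.21 ± 0.355 FPKM in cuprizone BTKi and 1.86 ± 0.453 FPKM in naive BTKi (log2 change 0.21, SE 0.12, adjusted p = 0.373). Of 16 genes of copper transport and metallothioneins, the metal-binding Mt1 (0.32), Mt2 (0.34) and Mt3 (0.29) were higher, and each call ended when single libraries were left out: Mt1 without naive BTKi 3 or 4, with adjusted p up to 0.0741, Mt2 without cuprizone BTKi 8 or naive BTKi 1, 3 or 4, with adjusted p up to 0.123 and Mt3 without cuprizone BTKi 1, 2, 3 or 8 or naive BTKi 1, 3 or 4, with adjusted p up to 0.113.

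Growth factors linked to remyelination were higher in 6 of 15 tested members. Igf1, insulin-like growth factor, was at 2.68 ± 0.637 FPKM in cuprizone BTKi and 1.41 ± 0.0351 FPKM in naive BTKi (log2 change 0.71, SE 0.20, adjusted p = 0.0276), a call that ended without cuprizone BTKi 8 or naive BTKi 1, 2, 3 or 4, with adjusted p up to 0.0752, and Tgfb1 was at 6.57 ± 1.63 FPKM in cuprizone BTKi and 3.45 ± 0.163 FPKM in naive BTKi (log2 change 0.81, SE 0.18, adjusted p = 0.00354). Igfbp3 was at 5.52 ± 1.000 FPKM in cuprizone BTKi and 3.74 ± 0.439 FPKM in naive BTKi (log2 change 0.49, SE 0.11, adjusted p = 0.00368). Of 22 genes of the matrix 2 were higher (9.09%, near the 6.11% of all genes tested), and the count was 0 with a mean of at least 1 FPKM and 4 with the 12 BTKi libraries alone. Mmp12, macrophage elastase, was at 0.717 ± 0.195 FPKM in cuprizone BTKi and 0.0114 ± 0.0131 FPKM in naive BTKi (log2 change 1.24, SE 0.18, adjusted p = 3.74e-05). The protease inhibitor Timp1 was at 1.14 ± 0.308 FPKM in cuprizone BTKi and 0.107 ± 0.0671 FPKM in naive BTKi (log2 change 1.42, SE 0.21, adjusted p = 6.24e-05), and fibronectin, Fn1, had a log2 change of 0.43 (adjusted p = 0.113). Of 16 proliferation genes Stmn1, a tubulin-binding protein also of neurons, changed by -0.20, a call that ended without naive BTKi 3, with adjusted p up to 0.0581, and no other was called; the count was 0 without naive BTKi 3 and 2 without cuprizone BTKi 3. Of 13 genes of fibroblasts and meninges Ptgds, prostaglandin D synthase, was lower (-0.48), a call that ended without cuprizone BTKi 2, 3, 5, 6, 7 or 8 or naive BTKi 2, 3 or 4, with adjusted p up to 0.166, and Dcn, decorin, was at 8.98 ± 2.00 FPKM in cuprizone BTKi and 8.85 ± 0.760 FPKM in naive BTKi. Of 11 mural cell genes 1 was higher (9.09%, near the 6.11% of all genes tested). It was Abcc9 (0.21), a call that ended without cuprizone BTKi 1, 4, 6 or 7 or naive BTKi 1, 2 or 4, with adjusted p up to 0.117, and Pdgfrb was at 4.20 ± 0.439 FPKM in cuprizone BTKi and 4.18 ± 0.457 FPKM in naive BTKi. None of 4 red blood cell genes and none of 13 mitochondrially encoded genes was called by limma, and 1 gene of each list had an unadjusted p under 0.05. The processed pseudogene Rpl10a-ps1 was among the largest rises, at 11.5 ± 8.41 FPKM in cuprizone BTKi and 0.529 ± 0.639 FPKM in naive BTKi (log2 change 3.40, SE 0.91, adjusted p = 0.017), but fragments of its parent gene can be counted to it and the call ended without naive BTKi 1 or 3, with adjusted p up to 0.0763. The noncoding RNA B230206H07Rik (-1.18) and Gm21984 (-1.39) were among the largest falls.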
